A study of Mus musculus with 8 samples.

Results

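Genes of plasminogen activation were examined in sorted fibroblast-rich stroma of the mouse large intestine: the activators Plat and Plau, the receptor Plaur, the serpins Serpine2 and Serpinf1, and thrombomodulin, Thbd. These 6 genes were taken by their symbols, and all 6 were found among the 24346 genes of the deposited tables. RNA-seq libraries were made from live podoplanin-positive cells sorted against CD45, CD31 and EpCAM, from mice of 12 weeks. The 4 cKO libraries came from mice labelled Pdgfra cre; Il10ra flox/flox, in which Cre follows a gene of fibroblasts and is directed at Il10ra, which encodes the chain of the interleukin-10 receptor that binds the cytokine. The 4 WT libraries came from mice labelled Il10ra flox/flox, so that both groups carried the floxed alleles and only cKO mice carried Cre. An effect of Cre itself and one of the loss of Il10ra cannot be told apart with these groups. By its title the study asked how this receptor in fibroblasts bears on interferon signalling and pathology of the large intestine.

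Plasmin, the protease that dissolves fibrin and also cuts matrix proteins and latent enzymes, is made from circulating plasminogen by tissue-type activator (the product of Plat) or by urokinase (Plau). Urokinase is held at the cell surface by its receptor (Plaur), and serpins such as protease nexin-1 (Serpine2) trap activators and thrombin in inactive complexes. Serpinf1 encodes pigment epithelium-derived factor, a serpin without known protease inhibition that is known for restraining blood vessel growth. Thrombomodulin (Thbd) binds thrombin and turns it from clotting towards activation of protein C and of a carboxypeptidase that slows fibrinolysis.

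The RefSeq promoter table (build GRCm38.p6, the same assembly as mm10) held 3 of the 6 genes, Plaur, Serpine2 and Serpinf1. Of these 3, the sequences of Plaur and Serpine2 are shown because their levels had a wider spread between libraries than that of Serpinf1. Different libraries were at the extremes of Plaur and Serpine2. Each covers 200 bases, from 250 to 51 bases before the RefSeq start. The windows lie at chr7:24462233-24462432 (plus strand) for Plaur and at chr1:79858716-79858915 (minus strand) for Serpine2. In the GENCODE annotation the outer start of Serpine2 is 79861180 on the minus strand. The Serpine2 window thus lies within the GENCODE gene. That gene has 6 transcripts, whose single starts were not compared with the RefSeq start. Capitals mark matches to TGANTCA, the element bound by AP-1 factors, and to GGGCGG, the GC box, searched on both strands.
Plaur: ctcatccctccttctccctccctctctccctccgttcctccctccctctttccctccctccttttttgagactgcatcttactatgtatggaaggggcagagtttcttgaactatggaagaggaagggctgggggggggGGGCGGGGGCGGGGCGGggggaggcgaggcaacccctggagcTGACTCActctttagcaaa
Serpine2: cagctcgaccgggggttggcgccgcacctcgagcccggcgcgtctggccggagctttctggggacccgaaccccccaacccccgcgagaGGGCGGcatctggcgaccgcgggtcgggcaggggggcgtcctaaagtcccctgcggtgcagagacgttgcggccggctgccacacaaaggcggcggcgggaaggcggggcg
In the Plaur window 1 match to TGANTCA lay 69 to 63 bases before the start, downstream of 3 GC boxes that abut or overlap one another. Serpine2 had 1 GC box and no match to TGANTCA, and Serpinf1 had no match to either. Of the 32851 windows of this length in the table, 5.57% held TGANTCA and 24.6% held GGGCGG. None of the 3 windows held TTCNNNGAA, the element bound by STAT factors, the interferon-stimulated response element in a spaced consensus form, or TGACGTCA, the cAMP response element, which were present in 5.76%, 2.40% and 0.828% of all windows.

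The deposited values are FPKM, which divide the fragments of a gene by its length and by the library total, so that levels of different genes can be set side by side. With about 17500000 fragments per library, as estimated from the values, relative depth ran from 0.857 to 1.08 of the mean. Fibroblast genes led the libraries, with Dcn at 7098 ± 277 FPKM in cKO and 7055 ± 277 FPKM in WT (SD, n = 4 each, as for all pairs given this way). Pdpn, the gene of the sorted surface protein, was at 84.8 to 92.4 FPKM in cKO and 90.4 to 94.7 FPKM in WT libraries. The Cre driver gene Pdgfra was at 155 ± 19.0 FPKM in cKO and 158 ± 1.91 FPKM in WT. Il10ra had 0.495 ± 0.175 FPKM in cKO and 0.631 ± 0.181 FPKM in WT with overlapping groups. Which part of Il10ra is floxed is not named in the labels, so that this level does not check the genotype. Epithelial transcripts stood out in cKO replicates 1 and 2. The summed level of 10 epithelial markers was 34.0 to 586 FPKM in cKO libraries, 586 in cKO replicate 1 and 345 in cKO replicate 2, and 46.7 to 88.2 FPKM in WT libraries.

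In the stroma of both genotypes the order of the levels was Serpinf1, Plat, Thbd, Plaur, Serpine2 and Plau. Serpinf1 averaged 609 FPKM over the 8 libraries and stood at place 114 of the 11506 genes with a mean of at least 1 FPKM. Plat averaged 345 FPKM (place 217), Thbd 150.1 FPKM (place 556), Plaur 53.6 FPKM (place 1442), Serpine2 45.6 FPKM (place 1692) and Plau 2.52 FPKM (place 9740). Ranges of neighbours in this order did not overlap, except those of Plaur and Serpine2, where Plaur was the higher in 6 of 8 libraries. Tissue-type activator exceeded urokinase at the level of RNA in every library, with a ratio of Plat to Plau of 116 to 191 in cKO and 106 to 196 in WT libraries. RNA of the urokinase receptor was also more abundant than that of urokinase. Plaur stood at 12.5 to 36.8 times the FPKM of Plau in cKO and at 17.99 to 24.7 times in WT libraries.

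**Figure D1:**
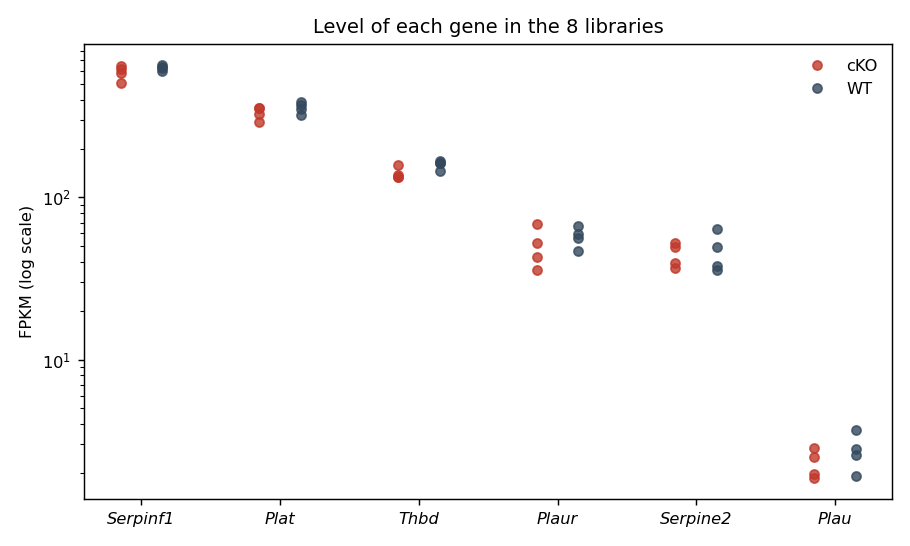
FPKM on a log axis for the 6 genes, ordered by their mean over all libraries. Each point is 1 library (cKO left, WT right, n = 4 each). Plau lies far below the other genes, and only Plaur and Serpine2 share a range.

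For none of the 6 genes did the difference between genotypes pass the test, given the spread between mice. Limma called 0 of the 6 at an adjusted p under 0.05, and over all 11506 genes tested 0.00869% were called. All 6 had a lower mean in cKO, with log2 differences of -0.23 to -0.04 and a median of -0.14. Of all genes tested 52.6% were lower and 47.4% higher, and the median was -0.0065. For 1 of the 6, Thbd, the unadjusted p was under 0.05, as for 5.41% of all genes tested (3.03% lower and 2.37% higher in cKO). For none of the 6 were the groups free of overlap, whereas cKO lay wholly below WT for 1.9% of all genes and wholly above for 1.36%. With 4 against 4 libraries, the smallest two-sided exact permutation p is 0.0286. These are sorted bulk samples, in which fewer cells of a type and less RNA per cell cannot be told apart.

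Plat, which encodes tissue-type plasminogen activator, lies on chromosome 8 (22757727 to 22782844, mm10, plus strand). Its FPKM was 355, 289.7, 353 and 328 in cKO replicates 1 to 4, and 389, 349, 324 and 373 in WT replicates 1 to 4. The lowest value belonged to cKO replicate 2 and the highest to WT replicate 1, while the remaining libraries of both groups intermingled. Means were 331 ± 30.3 in cKO and 359 ± 28.5 in WT. The log2 difference was -0.11 with a 95% confidence interval of -0.29 to 0.06 (limma, adjusted p = 0.927; two-sided exact permutation p = 0.286). The value depended on single libraries, at -0.05 without cKO replicate 2, -0.07 without WT replicate 1 and -0.16 without WT replicate 3. With quantile normalization it was -0.06.

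Plau (chromosome 14, 20836660 to 20843385, plus strand), the urokinase gene, was the only low member. It had 1.86, 1.97, 2.50 and 2.83 FPKM in cKO replicates 1 to 4, and 3.68, 2.80, 2.58 and 1.91 FPKM in WT replicates 1 to 4. WT replicate 1 was above all other libraries, and WT replicate 4 lay near the lowest cKO libraries. Means were 2.29 ± 0.458 in cKO and 2.74 ± 0.731 in WT, with a log2 difference of -0.18 (95% interval -0.53 to 0.18; limma adjusted p = 0.931; exact permutation p = 0.343). Without WT replicate 1 the difference was -0.06, without cKO replicate 1 it was -0.11 and without WT replicate 4 it was -0.29. With the epithelial markers as a covariate it was -0.06. At the estimated depth these values stand for about 79 to 149 fragments per library. For cKO replicate 1 the exact Poisson interval, which covers counting error only, ran from 1.47 to 2.31 FPKM, and for WT replicate 1 from 3.11 to 4.32 FPKM.

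**Figure D2:**
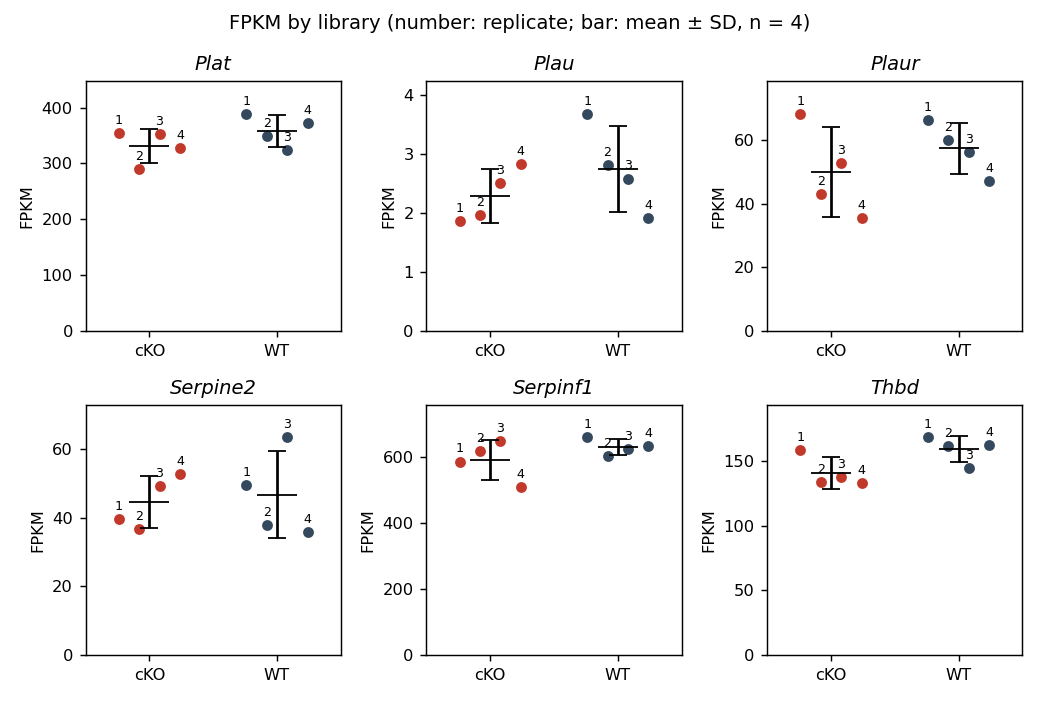
FPKM of the 6 genes in each library on axes that start at 0, with cKO left and WT right. Points carry the replicate number, which gives no order, and bars show the mean and SD (n = 4). Groups overlap in every panel, and Thbd shows cKO replicate 1 apart from the other cKO libraries.

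The receptor gene Plaur (chromosome 7, 24462484 to 24475968, plus strand) varied most among cKO libraries, by 1.92-fold from lowest to highest, and by 1.41-fold among WT libraries. Its FPKM was 68.2, 43.0, 52.6 and 35.5 in cKO replicates 1 to 4, and 66.2, 59.9, 56.2 and 47.0 in WT replicates 1 to 4. The cKO group thus held both the highest and the lowest library of the study. Means were 49.8 ± 14.1 in cKO and 57.3 ± 7.99 in WT, with a log2 difference of -0.23 (95% interval -0.63 to 0.17; limma adjusted p = 0.929; exact permutation p = 0.343). Without cKO replicate 1, the library richest in epithelial transcripts, the difference was -0.39 (adjusted p = 0.658), and without cKO replicate 4 it was -0.08 (adjusted p = 0.981). With the mean of the epithelial markers as a covariate it was -0.42 (adjusted p = 0.652). Leukocytes also express Plaur as background knowledge, and the summed level of 10 leukocyte markers was 92.9 to 199 FPKM in cKO, highest in cKO replicate 1, and 96.8 to 130 FPKM in WT. The part of these cells in the Plaur level was not tested.

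Serpine2 (chromosome 1, 79794197 to 79861180, minus strand), the gene of protease nexin-1, had 39.5, 36.7, 49.2 and 52.6 FPKM in cKO replicates 1 to 4, and 49.6, 38.0, 63.4 and 35.7 FPKM in WT replicates 1 to 4. Here the WT group held both extremes. The means of 44.5 ± 7.63 in cKO and 46.7 ± 12.7 in WT differed by -0.04 on the log2 scale (95% interval -0.45 to 0.36; limma adjusted p = 0.990; exact permutation p = 0.914). The sign turned without cKO replicate 1 (0.0064), cKO replicate 2 (0.04) or WT replicate 3 (0.11) and with the epithelial covariate (0.11). When any other single library was left out the difference lay between -0.16 and -0.0043.

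Serpinf1 (chromosome 11, 75409769 to 75422701, minus strand), one of the most abundant transcripts of these cells, had 585, 617, 647 and 507 FPKM in cKO replicates 1 to 4, and 658, 603, 623 and 633 FPKM in WT replicates 1 to 4. Only cKO replicate 4 and cKO replicate 1 lay below the whole WT group. Means were 589 ± 60.1 in cKO and 629 ± 23.1 in WT, and the log2 difference was -0.10 (95% interval -0.27 to 0.07; limma adjusted p = 0.929; exact permutation p = 0.286). Without cKO replicate 4 the difference was -0.03 (adjusted p = 0.981). Without cKO replicate 3 it was -0.15 (adjusted p = 0.817), the largest of the 20 alternatives, and with the epithelial covariate it was -0.14. With libraries rescaled to a fixed sum it was -0.06, and with quantile normalization it was 0.0053 (adjusted p = 0.997).

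Thbd (chromosome 2, 148404466 to 148408188, minus strand), a gene with a single exon, had the smallest p of the 6. It had 159, 134, 138 and 133 FPKM in cKO replicates 1 to 4, and 168, 162, 145 and 163 FPKM in WT replicates 1 to 4. Of the cKO libraries 3 lay below every WT library, and cKO replicate 1 lay among them. Means were 141 ± 12.2 in cKO and 159 ± 10.3 in WT, with a log2 difference of -0.18 (95% interval -0.34 to -0.02; limma unadjusted p = 0.0309, adjusted p = 0.897; exact permutation p = 0.0571). Thbd did not pass the adjusted test, with or without cKO replicate 1 (without it -0.24, unadjusted p = 0.00274, adjusted p = 0.433). With the epithelial covariate the difference was -0.25 (limma unadjusted p = 0.00397, adjusted p = 0.526). With library weights it was -0.21 (limma unadjusted p = 0.00925, adjusted p = 0.746). The unadjusted p of Thbd was not under 0.05 in 9 of the 20 alternatives. Those were quantile normalization, rescaling to a fixed sum, eBayes without trend, and leaving out any single library other than cKO replicate 1 or WT replicate 3. The limma unadjusted p reached 0.085 among them, with adjusted p of 0.809 and above. Endothelium is a known source of thrombomodulin, and the sort against CD31 should remove it. The summed level of 6 blood endothelium markers was 8.10 to 21.4 FPKM in cKO and 4.73 to 8.44 FPKM in WT libraries, and all 6 had a higher mean in cKO. Plvap, an endothelial diaphragm gene, had 7.07 ± 4.04 FPKM in cKO and 3.57 ± 1.01 FPKM in WT (limma unadjusted p = 0.026, adjusted p = 0.897). Kdr, a VEGF receptor gene, had 2.76 ± 1.53 FPKM in cKO and 1.63 ± 0.643 FPKM in WT, and Pecam1, the gene of CD31, had 1.54 ± 0.597 FPKM in cKO and 0.803 ± 0.178 FPKM in WT (unadjusted p = 0.146 and 0.0206). Of the 3 tested markers 2 were higher at an unadjusted p under 0.05 and 0 were called. The part of endothelium in the Thbd level was not tested.

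Other genes of plasminogen activation were measured in the same cells. Of 24 genes listed, 23 were in the tables and 16 reached a mean of 1 FPKM. Limma called 0 of the 16 in either direction, 11 had a lower and 5 a higher mean in cKO, and the median log2 difference was -0.03. Plg, which encodes plasminogen itself, Serpina5 (protein C inhibitor) and Cpb2 (the carboxypeptidase activated through thrombomodulin) were listed at 0 in all 8 libraries. The most abundant were Anxa2 and S100a10, whose products form a cell-surface docking complex for plasminogen and tissue-type activator. Anxa2 had 1101 ± 88.7 FPKM in cKO and 1125 ± 87.3 FPKM in WT, and S100a10 had 1029 ± 120.1 FPKM in cKO and 1096 ± 55.8 FPKM in WT. Mmp14, a membrane-bound matrix metalloproteinase, had 270.2 ± 18.3 FPKM in cKO and 266 ± 19.8 FPKM in WT.

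Plgrkt, which encodes a transmembrane plasminogen receptor, had the smallest unadjusted p of these 16 and was higher in the cKO mean. It had 29.9, 26.5, 26.6 and 23.9 FPKM in cKO replicates 1 to 4, and 23.5, 24.0, 21.8 and 23.2 FPKM in WT replicates 1 to 4. Only cKO replicate 4 lay within the WT range. The log2 difference was 0.20 (SE 0.07, limma unadjusted p = 0.02, adjusted p = 0.897), where 2.37% of all genes tested were higher at an unadjusted p under 0.05. Next by p came Itgb5, an integrin chain that binds vitronectin, and Vtn, the adhesive matrix protein vitronectin itself. Itgb5 was at 120.7 ± 11.1 FPKM in cKO and 95.9 ± 38.0 FPKM in WT, where replicates 1 and 2 stood at 77.9 and 50.9 FPKM. Vtn was at 4.81 ± 0.552 FPKM in cKO and 4.22 ± 0.959 FPKM in WT. Neither passed (limma adjusted p = 0.903 and 0.931).

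**Figure D3:**
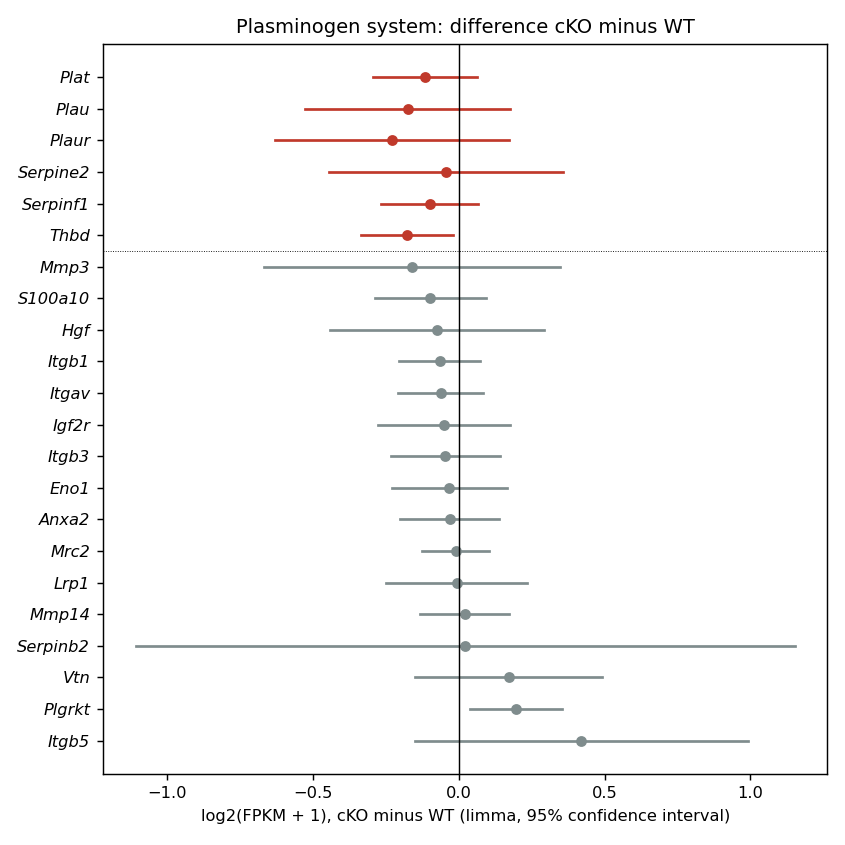
Difference of log2(FPKM + 1), cKO minus WT, with the 95% confidence interval from limma, for the 6 genes (red, above the dotted line) and the 16 other tested genes of plasminogen activation (grey, by size of the difference). Intervals of Thbd and Plgrkt leave out 0, on opposite sides, and no gene passed the adjusted test.

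Of 25 genes of thrombin and coagulation control, 11 were tested and 0 were called, with 6 lower and 5 higher in the cKO mean and a median log2 difference of -0.0067. The chains Fga and Fgb of fibrinogen were listed at 0 in all libraries. Anxa5, a binder of phosphatidylserine, had 707 ± 31.8 FPKM in cKO and 707 ± 31.8 FPKM in WT. Thbs1, thrombospondin-1, had 466 ± 57.7 FPKM in cKO and 477 ± 50.3 FPKM in WT. F3, tissue factor, which starts clotting, had 159 ± 23.7 FPKM in cKO and 165 ± 4.87 FPKM in WT. Smallest by p were Tfpi2, a Kunitz inhibitor of plasmin and other proteases (log2 difference -0.35, SE 0.18), Gas6, a vitamin K-dependent ligand of TAM receptors (0.15, SE 0.08), and F2r, the thrombin receptor PAR1 (0.19, SE 0.13). None of these passed (limma adjusted p = 0.897 for Tfpi2 and Gas6 and 0.920 for F2r).

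Among 19 other serpins, 12 were tested and 0 were called, with 6 lower and 6 higher in the cKO mean. The median log2 difference was -0.0054. Serping1, the C1 inhibitor gene, was the most abundant at 2422 ± 186 FPKM in cKO and 2502 ± 66.2 FPKM in WT, followed by the collagen chaperone gene Serpinh1 at 812 ± 13.9 FPKM in cKO and 811 ± 86.6 FPKM in WT. Serpinb6a had 190.1 ± 10.4 FPKM in cKO and 208 ± 11.8 FPKM in WT, and Serpina3n had 62.9 ± 8.74 FPKM in cKO and 77.0 ± 12.8 FPKM in WT (limma adjusted p = 0.897 each). Serpinb9b had 2.24 ± 0.499 FPKM in cKO and 1.57 ± 0.623 FPKM in WT (adjusted p = 0.897). Values of the Serpina3, Serpinb6 and Serpinb9 genes are uncertain because close copies can share fragments. Serpina1b and Serpini2 were listed at 0.

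Spread among mice of one genotype differed between the 6 genes. The SD of log2 values within groups was 0.31 for Plaur and 0.31 for Serpine2, and these values lay above those of 97.9% of genes of like level (within 0.5 on the log2 scale) for both. It was 0.24 for Plau, 0.13 for Plat, 0.11 for Serpinf1 and 0.11 for Thbd. The value of Plau depends on the pseudocount, because its level is low. With a pseudocount of 0.1 the limma SE was 0.21 for Plau, above the 0.18 of both Plaur and Serpine2. As a description over the 8 libraries, Pearson's r of log2 values was 0.79 between Plat and Thbd, 0.73 between Plaur and Thbd and 0.54 between Plat and Plaur. After each group's mean was subtracted these were 0.73, 0.69 and 0.45. Plaur and Serpine2 had r = -0.02, and Serpine2 and Thbd r = -0.31 (-0.51 after subtraction). Plau went most with Serpine2, with r = 0.56 (0.58 after subtraction).

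Genes whose level followed Plaur most closely over the 8 libraries, among 11505 compared, were Trib1, a pseudokinase gene (r = 0.97), Bach1, which encodes a heme-regulated transcription repressor (r = 0.97), and Fosl1, which encodes the AP-1 subunit Fra-1 (r = 0.97). Fosl1 had 13.5, 8.67, 11.1 and 5.46 FPKM in cKO replicates 1 to 4, and 15.6, 13.6, 10.9 and 9.20 FPKM in WT replicates 1 to 4. Its lowest library was cKO replicate 4, as for Plaur. Early dissociation-response genes were high in all libraries, with a sum over 10 genes of 12886 to 13738 FPKM in cKO, lowest in cKO replicate 1, and 12822 to 13268 FPKM in WT. The part of tissue dissociation in the Plaur level was not tested. With 8 libraries and so many genes, high coefficients are common, and the tenth closest gene to Plaur still had r = 0.95.

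**Figure D4:**
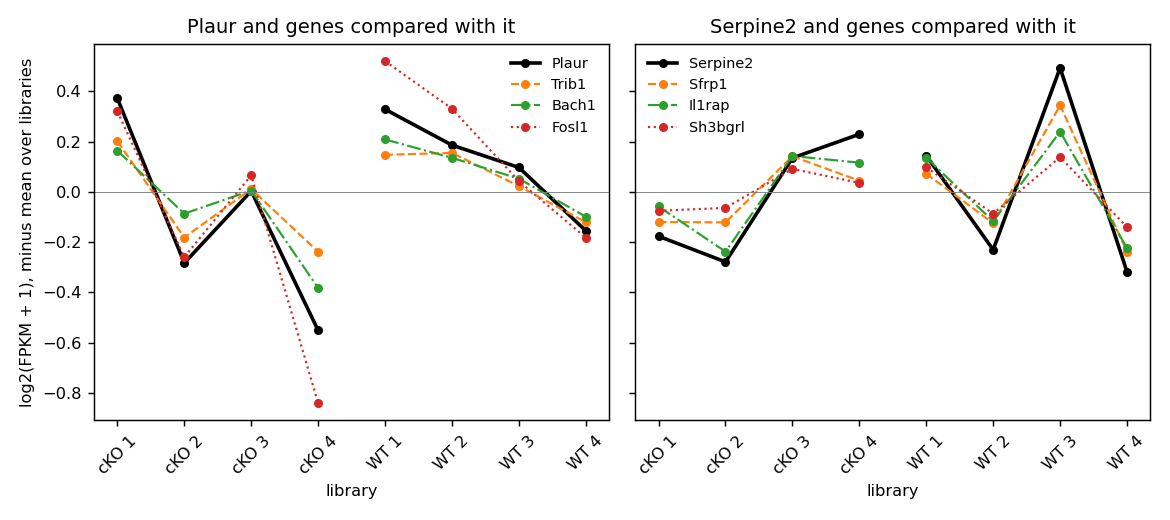
Level of each gene as log2(FPKM + 1) minus its mean over the 8 libraries, for Plaur with its 3 closest genes (left) and for Serpine2 with its 3 closest genes (right). Lines join libraries of one group for reading only and give no order. Plaur runs from cKO replicate 1 at the top to cKO replicate 4 at the bottom, whereas Serpine2 has both extremes in WT replicates 3 and 4.

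Serpine2 was followed most closely by Sfrp1, which encodes a secreted Wnt inhibitor (r = 0.96), Il1rap, the accessory chain of the interleukin-1 receptor (r = 0.96), and Sh3bgrl (r = 0.94). Sfrp1 had its highest level, 86.3 FPKM, in WT replicate 3 and its lowest, 57.3 FPKM, in WT replicate 4, where Serpine2 was also highest and lowest. Serpinf1 was matched by Vkorc1, the reductase that recycles vitamin K for clotting factors (r = 0.99), by the microfibril gene Mfap2 (r = 0.96) and by the translation factor gene Eif3e (r = 0.96). Vkorc1 had 243 FPKM in cKO replicate 4, its lowest library, and 299 FPKM in WT replicate 1, its highest, which were also the extremes of Serpinf1. Plat was followed by Bop1, a ribosome biogenesis gene (r = 0.97), Mta2, a chromatin remodelling subunit gene (r = 0.95), and Tceb1, elongin C (r = 0.95). Plau was followed by Ccdc50 (r = 0.97), Ick (r = 0.97) and Usp37, a deubiquitinase gene (r = 0.96). Thbd was followed by Rpsa, a ribosomal protein gene (r = 0.96), Prdx1, a peroxiredoxin gene (r = 0.94), and Mpp5, a cell polarity gene (r = 0.94). Limma called none of these genes between the genotypes, and their levels, like those of the members, come from the same libraries.

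Markers of further cell types that a podoplanin gate could hold were mostly low. The sum of 6 lymphatic endothelium markers was 72.4 to 86.9 FPKM in cKO and 86.7 to 94.6 FPKM in WT. Nearly all of it was Tek, so the sum tells little of lymphatic cells. The other 5 markers had higher means in cKO, all under 1 FPKM and not tested. Without overlap of the groups, Mmrn1 had 0.922 ± 0.359 FPKM in cKO and 0.303 ± 0.124 FPKM in WT, Flt4 had 0.227 ± 0.0368 FPKM in cKO and 0.0764 ± 0.0505 FPKM in WT, and Reln had 0.0978 ± 0.0624 FPKM in cKO and 0.0304 ± 0.00907 FPKM in WT. Tek itself had 80.2 ± 7.52 FPKM in cKO and 89.9 ± 3.19 FPKM in WT without overlap (limma unadjusted p = 0.0386, adjusted p = 0.897). Among all genes tested, cKO lay wholly below WT for 1.9% and wholly above for 1.36%. No such share was taken for genes under a mean of 1 FPKM, such as Mmrn1, Flt4 and Reln. The sum of 6 smooth muscle markers was 42.0 to 84.3 FPKM in cKO and 49.97 to 57.8 FPKM in WT. For 6 mesothelial markers it was 8.67 to 108 FPKM in cKO and 11.0 to 18.4 FPKM in WT, mostly Krt19, which epithelium also expresses, and Msln did not exceed 2.64 FPKM. For 6 markers of enteric glia it was 1.61 to 2.71 FPKM in cKO and 0.683 to 1.66 FPKM in WT. No marker was listed at 0 in all libraries, and the part of these cells in the levels of the 6 genes was not tested.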

How the data were processed

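RNA-seq of sorted stromal cells covered 8 mice, 4 cKO and 4 WT, grouped by their titles and genotype labels, and the series' design text gives 4 mice a group. The authors deposited 1 table of FPKM values per library, with 24346 gene symbols. The submitters' processing notes name Cufflinks 2.2.1 and Cuffdiff beside SAMtools 0.1.18, TopHat2 2.1.1, Bowtie2 2.3.5.1 and the build mm10. The sources used here state no annotation, strand setting or scaling between libraries. FPKM are no counts, so a count model was not used. Depth was read from whole-fragment steps of genes under a mean of 0.3 FPKM (57.9% to 65.3% of ratios on steps within 0.002 on the log2 scale, against 1.84% to 4.87% at random offsets) and from 37 single-transcript genes of at least 4000 bases (median 17500000 and quartiles 16100000 and 17700000 fragments). Not all ratios lay on steps, so fragment numbers are estimates.

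Values were taken as log2(FPKM + 1), which understates changes of low genes. The 11506 genes with a mean of at least 1 FPKM were fitted with limma 3.58.1 in R 4.3.3 (eBayes with trend, 2 groups), and an adjusted p (Benjamini-Hochberg over all genes) under 0.05 was a call. Exact permutation tests over 70 arrangements, plots and sequence searches used matplotlib 3.10.9, scipy 1.17.1, numpy 2.4.6 and pandas 2.3.3 under Python 3.11.15. Limma was tested on simulated data, and the permutation test on small sets of values with known answers. Positions come from GENCODE M21 (GRCm38). No other annotated gene overlaps an exon of the 6. The members, gene lists, motifs and tests were chosen with earlier results of these data known. Named besides the 6 were the 3 most abundant genes and the 3 with the smallest p of each pathway list, the 3 genes most alike to each member by Pearson's r (predicted and small RNA genes passed over), the leading markers of other cell types, and Il10ra and Pdgfra. Pdpn, Flt4, Reln and genes listed at 0 were added after their values were seen. A gene of the plasminogen list is not reported here. Alternatives were other pseudocounts, filters, scalings, eBayes settings and weights, an epithelial covariate, a replicate block and leaving out each library.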

Additional observations from a re-analysis of the deposited data

Results flagged for a closer look

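In 46 groups of 4 values, from 23 genes, 2 held a library far from the other 3 by Dixon's ratio, where chance flags about 1 in 20. Thbd in cKO replicate 1 was at 159 FPKM, against 133 to 138 FPKM in the other cKO libraries. Serping1 in WT replicate 3 was at 2403 FPKM, against 2529 to 2541 FPKM in the other WT libraries.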

How the results depend on the processing

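For the 6 genes limma called 0 under all 20 alternatives run, with no adjusted p under 0.433. The mean FPKM minimum of 5 left out Plau. Plat, Plau, Plaur and Thbd were lower in cKO under every alternative that gave a value, with log2 differences of -0.16 to -0.05, -0.29 to -0.06, -0.42 to -0.08 and -0.25 to -0.12. Serpine2 turned to 0.11 with the epithelial covariate, and leaving out 1 library each gave -0.16 to 0.11 (0.0064 and 0.04 when cKO replicate 1 or 2 was left out, 0.11 when WT replicate 3 was, with exact permutation p of 0.571 to 1). Serpinf1 ran from -0.15 to 0.0053 and turned sign only with quantile normalization (exact permutation p = 0.971). The cause was not tested.

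Over all genes 1 was called, and 1 to 4 when 1 library was left out (4 without cKO replicate 1, 2 without cKO replicate 2, 3 without WT replicate 3). Same-numbered libraries had correlated deviations of only 0.018 to 0.091, and 1 of 8 libraries correlated best with its own number, so the numbers were not taken as pairs. With the replicate block 1 gene was called over all genes, and Plaur had -0.23 (limma unadjusted p = 0.0468, adjusted p = 0.898). Precision is limited by 4 libraries a group. For Plau, counting error on about 79 to 149 fragments per library adds to the spread between libraries.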
